A study of Mus musculus with 6 samples.

Results

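The genes described here are 9 markers of cortical inhibitory interneurons, *Pvalb*, *Lhx6*, *Sox6*, *Calb2*, *Htr3a*, *Adarb2*, *Prox1*, *Nos1* and *Reln*. They were chosen by name, as markers other than neuropeptides of interneurons that arise in the medial or the caudal ganglionic eminence, and all 9 were found among the 18254 genes of the deposited table. The samples were mPFC RNA from male mice on the C57BL/6J background aged 10 to 12 weeks, with 3 libraries from transgenic mice that overexpress EGFP-tagged Shank3 (*Shank3* TG, TG-1 to TG-3) and 3 from WT littermates (WT-1 to WT-3). Each library pooled the mPFC of 2 mice of 1 genotype, so that a replicate is a pool, and the dissection started behind a cut that removed the front of the brain with the olfactory bulb. The values are normalized read counts, that is, estimated reads per gene divided by a size factor of the library, and they summed to between 28363967 and 29447717 per library. *Shank3* itself had 16310 to 19004 normalized counts in *Shank3* TG and 6791 to 8374 in WT, a log2 difference of 1.18 (standard error 0.10). Some libraries stood apart from others of their genotype. TG-2 had raised olfactory bulb genes, and the libraries numbered 3 of both genotypes differed from those numbered 1 and 2. Values without single libraries or with the replicate number in the model are given beside several results.

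Cortical interneurons are born in the ventral forebrain of the embryo and migrate into the cortex. The medial ganglionic eminence gives rise to the fast-spiking parvalbumin cells and the somatostatin cells, under the control of a cascade of transcription factors that includes Lhx6 and Sox6. The caudal ganglionic eminence gives rise to the cells that express the serotonin receptor Htr3a, among them the vasoactive intestinal peptide cells and the neurogliaform cells of layer 1. Nitric oxide synthase and reelin are found in cells of both origins. In bulk tissue, fewer cells of a type and less RNA per cell cannot be told apart.

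No interneuron gene passed the test of *Shank3* TG against WT (limma's moderated test on log2(normalized count + 1), two-sided, Benjamini-Hochberg adjustment over 16714 genes). The adjusted p-value was 1.00 for each of the 9 genes, and the unadjusted p-values ranged from 0.134 for *Nos1* to 0.980 for *Sox6*. Among all genes tested, 0% had an adjusted p-value under 0.05 and 2.01% had an unadjusted p-value under 0.05, against 0 of the 9 interneuron genes for both. The overexpressed *Shank3* was not called either, with an adjusted p-value of 0.0643 in this limma test and of 0.000437 with the replicate number as a block, so that 0 calls among the 9 genes say little about smaller differences. The *Shank3* TG and WT libraries overlapped for each of the 9 genes, whereas they did not overlap for 6.02% of all genes tested. The median log2 fold change of the 9 genes was -0.00 (-0.0036) and ranged from -0.03 to 0.06 with single libraries left out, and that of all genes tested was -0.00 (-0.0037). An exact two-sided permutation test on 1 gene, with 3 libraries in each genotype, has 0.1 as its smallest possible p-value.

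**Figure D1:**
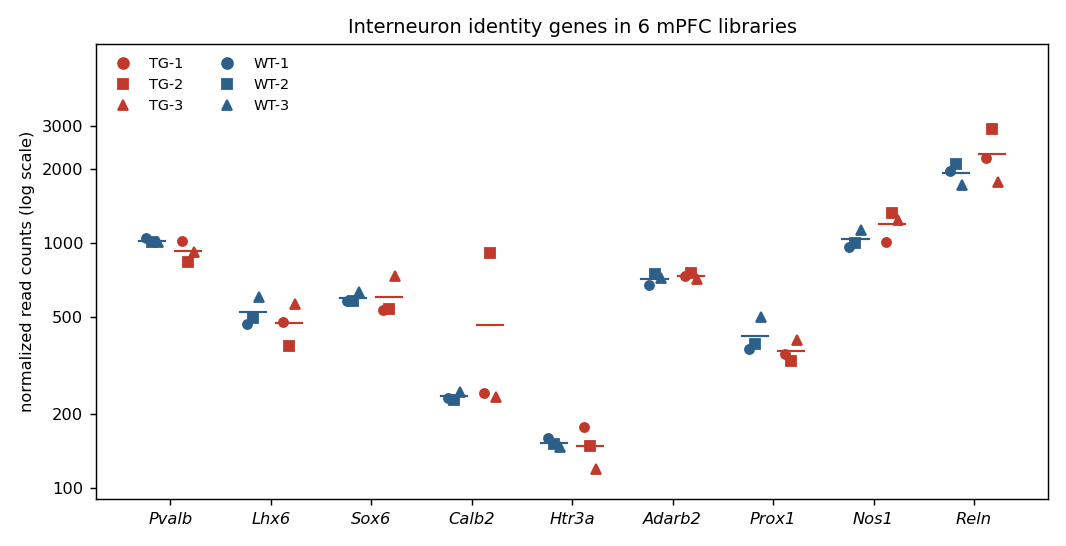
Normalized read counts (log scale) of the 9 interneuron genes in the 6 mPFC libraries, with WT in blue, *Shank3* TG in red, the marker shape giving the replicate number and the line the mean of the 3 libraries of a genotype. The genotypes overlap for every gene, and TG-2 stands apart for *Calb2* at 911 normalized counts against 227 to 247 in the other 5 libraries.

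The 9 genes differed in level by more than 1 order of magnitude. Per kilobase of merged exons, the WT mean was 982 normalized counts for *Pvalb* (higher than 92.6% of the genes tested) and 135 for *Calb2*. It was 109 for *Lhx6*, 92.7 for *Nos1*, 81.4 for *Reln*, 73.3 for *Htr3a*, 54.3 for *Adarb2*, 49.9 for *Prox1* and 40.2 for *Sox6*. On this scale, the WT libraries of *Lhx6* and *Nos1*, of *Nos1* and *Reln*, of *Reln* and *Htr3a* and of *Adarb2* and *Prox1* overlapped, so that the order of these neighbours was not set beyond their spread. The merged exons span from 1.04 kb for *Pvalb* to 23.7 kb for *Reln*, and a gene with exons that the cortex does not use is placed too low.

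*Pvalb* (ENSMUSG00000005716, GRCm38 chromosome 15 from 78191114 to 78206400, minus strand) encodes parvalbumin, the calcium-binding protein of fast-spiking basket and chandelier cells. Its normalized counts were 1021 in TG-1, 836 in TG-2 and 921 in TG-3, and 1052 in WT-1, 1006 in WT-2 and 1010 in WT-3. The WT libraries lay close together, and TG-1 was the only *Shank3* TG library within their range. The log2 fold change was -0.15 (standard error 0.09), with a 95% confidence interval from -0.36 to 0.07, or from 0.777-fold to 1.05-fold. At each replicate number the *Shank3* TG library had less *Pvalb* than the WT library. Without TG-2 its log2 fold change was -0.08, and without TG-1 it was -0.22.

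*Lhx6* (ENSMUSG00000026890, chromosome 2 from 36081953 to 36105408, minus strand), a LIM homeodomain factor that specifies interneurons of the medial ganglionic eminence, stood at 476, 379 and 561 normalized counts in TG-1 to TG-3 and at 469, 494 and 601 in WT-1 to WT-3. TG-2 was the lowest library, and the highest were those numbered 3 in both genotypes. Its log2 fold change of -0.15 (standard error 0.16, confidence interval from -0.53 to 0.22) was -0.0046 without TG-2 and -0.29 without TG-3. *Sox6* (ENSMUSG00000051910, chromosome 7 from 115470872 to 116038796, minus strand), which acts after Lhx6 in the positioning and maturation of these cells and is also expressed by oligodendrocyte precursors, stood at 530, 537 and 736 normalized counts in TG-1 to TG-3 and at 577, 580 and 630 in WT-1 to WT-3. TG-3 was above all WT libraries and the other *Shank3* TG libraries were below them. The log2 fold change of *Sox6* was -0.0036 (standard error 0.14, confidence interval from -0.32 to 0.32), and its sign changed with the scaling of the libraries.

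*Calb2* (ENSMUSG00000003657, chromosome 8 from 110137502 to 110168210, minus strand) encodes calretinin, a calcium-binding protein of a part of the caudal ganglionic eminence interneurons that is also abundant in the granule and periglomerular cells of the olfactory bulb. It stood at 245, 911 and 234 normalized counts in TG-1 to TG-3 and at 234, 227 and 247 in WT-1 to WT-3. TG-2 was 3.89-fold above the median of the other 5 libraries, which lay between 227 and 247. The log2 fold change of 0.66 (standard error 0.47, confidence interval from -0.43 to 1.75) therefore rested on TG-2, and without it the log2 fold change was 0.02 (standard error 0.12, confidence interval from -0.27 to 0.32). *Calb2* was the 1 gene of the 9 that was at least 2-fold higher in TG-2 than in every other library, which held for 37 of the 16714 genes tested (0.221%). The other libraries had between 15 and 75 such genes, the most in WT-3.

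Genes of the olfactory bulb moved with *Calb2* in TG-2. Of a list of 9 genes of olfactory bulb neurons and neuroblasts, 8 had their highest value in TG-2 and 6 were at least 2-fold higher there than in any other library. The summed level of the list was 3277 normalized counts in TG-2, whereas it was 1643 in TG-1, 1934 in TG-3 and 1611 to 2161 in WT, the highest of these in WT-3. *Cdhr1*, a cadherin-related gene of mitral and tufted cells, had 720 normalized counts in TG-2 and 39.2 to 100.2 in the other libraries. *Doc2g*, likewise a gene of mitral and tufted cells, had 386 in TG-2 and 79.0 to 159 elsewhere. *Scgn*, named after its values were seen as the 1 gene of the list with a value of 0, had 53.3 normalized counts in TG-2 and 0 to 3.77 in the other libraries, with the 0 in WT-2. The median log2 fold change was 0.36 over the 9 genes, 1.2 without TG-1 and 1.07 without WT-3. Without TG-2, 7 of them passed the filter on low values, and their median was -0.30, against 0.34 for the same 7 with all libraries. The part of olfactory bulb RNA in the *Calb2* value of TG-2 was not tested.

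**Figure D2:**
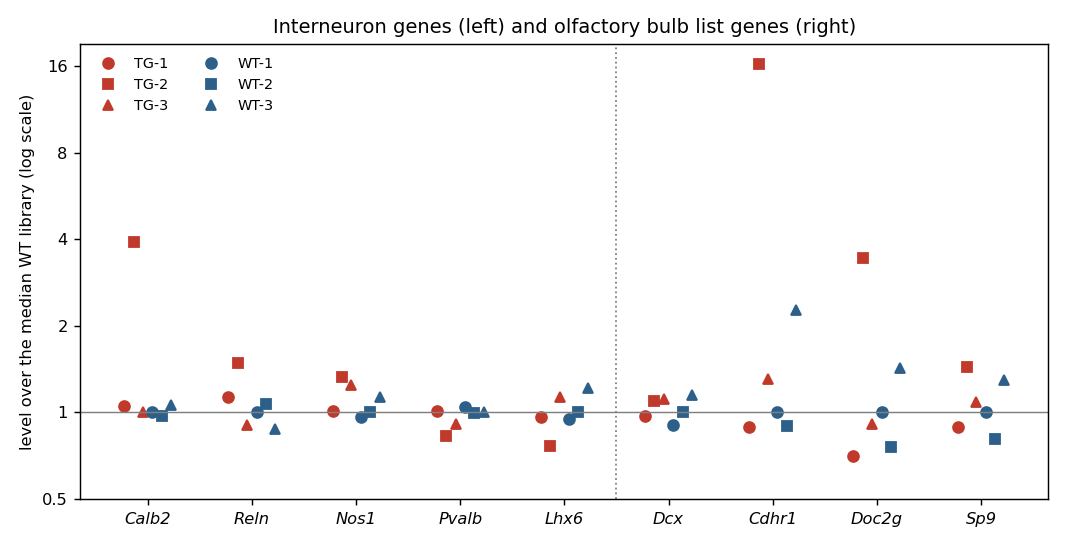
Level of 5 interneuron genes and of the 4 most abundant genes of the olfactory bulb list in each library, divided by the median WT library (log scale). TG-2 (red squares) is the highest library for *Calb2*, *Reln*, *Nos1*, *Cdhr1*, *Doc2g* and *Sp9* and the lowest for *Pvalb* and *Lhx6*.

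*Reln* (ENSMUSG00000042453, chromosome 5 from 21884454 to 22344702, minus strand) encodes reelin, a secreted matrix glycoprotein of neurogliaform and somatostatin cells in the adult cortex, which mitral cells of the olfactory bulb also express. It stood at 2222, 2920 and 1778 normalized counts in TG-1 to TG-3 and at 1970, 2102 and 1722 in WT-1 to WT-3. TG-2 was again the highest library, and the libraries numbered 3 were the lowest of both genotypes. For *Reln* the log2 fold change came to 0.23 (standard error 0.17, confidence interval from -0.17 to 0.63), to 0.05 without TG-2 and to 0.40 without TG-3 (confidence interval from 0.07 to 0.74, unadjusted p-value 0.0233 and adjusted p-value 1.00 by limma). *Nos1* (ENSMUSG00000029361, chromosome 5 from 117781032 to 117958840, plus strand), the neuronal nitric oxide synthase, is strongest in rare long-range somatostatin cells. It stood at 1009, 1328 and 1245 normalized counts in TG-1 to TG-3 and at 965, 1003 and 1133 in WT-1 to WT-3. TG-2 and TG-3 were above all WT libraries and TG-1 was within their range. Its log2 fold change was 0.20 (standard error 0.12, confidence interval from -0.08 to 0.48), 0.12 without TG-2 and 0.32 without TG-1 (unadjusted p-value 0.0234 and adjusted p-value 1.00 by limma).

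*Prox1* (ENSMUSG00000010175, chromosome 1 from 190118035 to 190170714, minus strand) is a homeodomain factor that caudal ganglionic eminence interneurons keep into adulthood, and it is also expressed in the dentate gyrus and in the oligodendrocyte lineage. It stood at 352, 329 and 401 normalized counts in TG-1 to TG-3 and at 370, 388 and 497 in WT-1 to WT-3. TG-3 lay above WT-1 and WT-2, and the other *Shank3* TG libraries lay below all WT libraries. The log2 fold change was -0.21 (standard error 0.14, confidence interval from -0.53 to 0.12), -0.08 without WT-3 and -0.29 without WT-1. Of 8 genes of mature oligodendrocytes, 7 had an unadjusted p-value under 0.05 in the same test and 0 an adjusted one, all 8 with a negative log2 fold change (median -0.44, or -0.54 without TG-2). Among them were *Mog*, *Mobp*, *Cnp*, *Cldn11*, *Ermn* and *Opalin*, genes of myelin and the cells that make it, with log2 fold changes between -0.59 for *Ermn* and -0.28 for *Cnp*. The remaining gene, *Mag*, had an unadjusted p-value of 0.0597, or of 0.0250 with the replicate block, by limma. Their summed level was 42045 to 54726 normalized counts in *Shank3* TG and 60988 to 71388 in WT. The 7 genes of oligodendrocyte precursors had a median of -0.10, which was -0.15 without TG-2 and -0.18 without WT-2, and summed levels of 6222 to 7079 and of 6500 to 7636. The part of oligodendrocyte RNA in the values of *Prox1* and *Sox6* was not tested.

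*Htr3a* (ENSMUSG00000032269, chromosome 9 from 48899213 to 48911099, minus strand), a subunit of the serotonin-gated ion channel, stood at 176, 148 and 119 normalized counts in TG-1 to TG-3 and at 159, 152 and 147 in WT-1 to WT-3. The *Shank3* TG libraries spread on both sides of the WT libraries. Its log2 fold change was -0.06 (standard error 0.16, confidence interval from -0.44 to 0.32) and turned to 0.08 without TG-3. *Adarb2* (ENSMUSG00000052551, chromosome 13 from 8202866 to 8768747, plus strand), a member of the adenosine deaminase family that marks the caudal lineage as a whole, varied least. It stood at 736, 751 and 713 normalized counts in TG-1 to TG-3 and at 674, 747 and 717 in WT-1 to WT-3. All 6 libraries lay between 674 and 751, and the genotypes overlapped. The log2 fold change was 0.04 (standard error 0.08), and the confidence interval from -0.15 to 0.23, or from 0.903-fold to 1.17-fold, was the narrowest of the 9. With single libraries left out the value for *Adarb2* ranged from 0.0033 without WT-1 to 0.08 without WT-2.

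**Figure D3:**
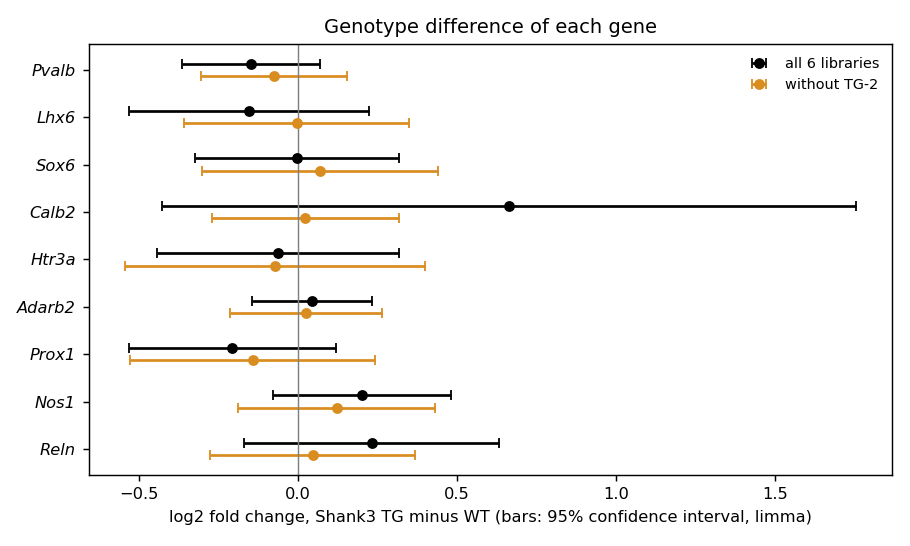
Log2 fold change of *Shank3* TG over WT for each of the 9 genes with its 95% confidence interval from limma, from all 6 libraries (black) and without TG-2 (orange). These intervals are from the fit without the replicate block and all hold 0, and that of *Calb2* goes from -0.43 to 1.75 with TG-2 and from -0.27 to 0.32 without it.

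The libraries of both genotypes carry replicate numbers, and those numbered 3 deviated together. Their deviations from the genotype mean had a correlation across genes of 0.62. It was 0.30 and 0.33 for the numbers 1 and 2, little above the 0.27 of TG-1 with WT-2 and the 0.23 of TG-2 with WT-1. The p-values with the block rest on taking all 3 numbers as pairs. With the replicate number as a block in limma's model, the unadjusted p-value was 0.0224 for *Reln*, 0.0334 for *Nos1* and 0.0488 for *Prox1*, and above 0.05 for the other 6 genes. These were 3 of 9 genes, and among all genes tested 4.98% had an unadjusted p-value under 0.05 in this fit. With a term for the libraries numbered 3 in place of the block, 1 of 9 was under 0.05, at 0.0423 for *Prox1*, 0.0558 for *Reln* and 0.0735 for *Nos1* (unadjusted, limma). With the block the standard errors were 0.08 for *Reln*, 0.08 for *Nos1* and 0.09 for *Prox1*, smaller than without the block, and the 95% confidence intervals of these 3 log2 fold changes with the block did not hold 0. The adjusted p-values in limma's test with the block were 0.912 for *Reln*, 0.984 for *Nos1* and 0.996 for *Prox1*. *Pvalb* and *Prox1* were lower and *Nos1* and *Reln* higher in *Shank3* TG at each of the 3 replicate numbers, which is 4 of 9 genes, and 24.8% of all genes tested had the same direction at each number. For *Reln* the log2 differences were 0.17, 0.47 and 0.05 at the numbers 1, 2 and 3. For *Nos1* they were 0.06, 0.40 and 0.14, and for *Prox1* they were -0.07, -0.24 and -0.31. Without the libraries numbered 2, a setting chosen after TG-2 had been seen to stand apart, the fit with the block gave unadjusted p-values of 0.155 for *Reln*, 0.229 for *Nos1* and 0.119 for *Prox1*. The log2 fold changes were then 0.11 for *Reln*, 0.10 for *Nos1* and -0.19 for *Prox1*.

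The libraries numbered 3 were compared with the other 4 for each of the 9 genes. *Lhx6*, *Sox6* and *Prox1* were higher in both libraries numbered 3 than in any of the other 4, as were 20.3% of all genes tested. *Htr3a* and *Reln* were lower in both than in any other library, as were 20.6% of all genes tested. With 3 and 2 of 9 genes, these shares are near those of all genes and are not particular to the interneuron genes. *Lhx6* was higher by 0.40 in TG-3 and by 0.32 in WT-3 (log2 difference from the mean of the libraries numbered 1 and 2 of the same genotype). *Reln* differed by -0.52 in TG-3 and by -0.24 in WT-3. The GC content of the longest protein-coding transcript was 56.2% for *Lhx6*, 46.1% for *Sox6* and 45.3% for *Prox1*, on both sides of the median of 50.2% over the genes tested, and 53.4% for *Htr3a* and 51.1% for *Reln*.

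**Figure D4:**
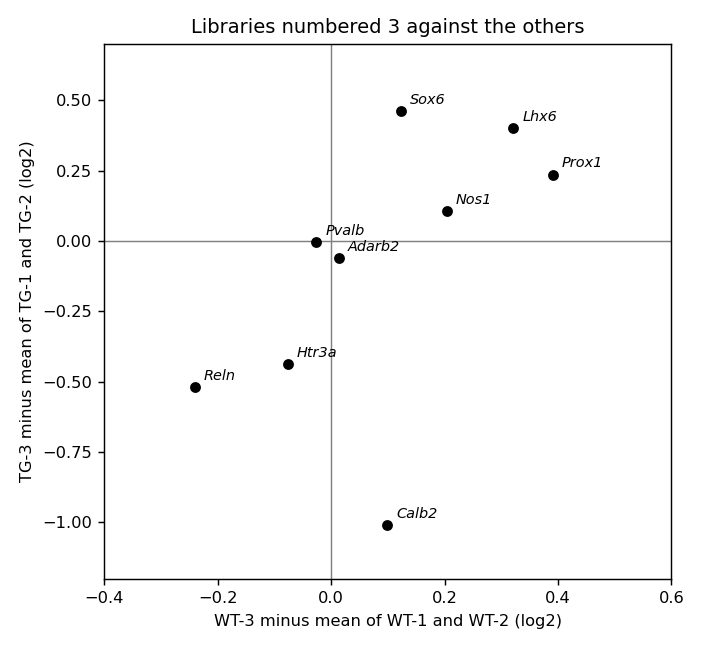
Log2 difference of TG-3 from the mean of TG-1 and TG-2 (vertical) against that of WT-3 from the mean of WT-1 and WT-2 (horizontal) for the 9 genes. Both libraries numbered 3 were above all others for *Lhx6*, *Sox6* and *Prox1* and below all others for *Reln* and *Htr3a*. On the plotted differences *Nos1* is also higher (0.11 in TG-3 and 0.20 in WT-3) and *Pvalb* slightly lower (-0.0044 and -0.026) in both genotypes. The value of -1.01 for *Calb2* comes from the high level in TG-2.

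The promoters of 3 of these genes are shown to give their base composition, without a link to the levels, as the 100 bases before the most upstream start site in RefSeq (GRCm38.p6), written 5′ to 3′. Of the 9 genes, 7 were in this table, and *Calb2* and *Htr3a* were not. The window of *Sox6* overlaps an annotated exon and is not shown. *Lhx6* (chr2:36105409-36105508, minus strand) and *Prox1* (chr1:190170828-190170927, minus strand) were higher and *Reln* (chr5:22344706-22344805, minus strand) was lower in the libraries numbered 3 of both genotypes. Capitals mark GGGCGG or its reverse complement CCGCCC, the GC box.
Lhx6: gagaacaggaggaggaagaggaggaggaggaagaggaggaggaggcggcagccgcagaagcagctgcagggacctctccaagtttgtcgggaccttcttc
Prox1: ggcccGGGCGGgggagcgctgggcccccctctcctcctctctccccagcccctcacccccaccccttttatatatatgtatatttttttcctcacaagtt
Reln: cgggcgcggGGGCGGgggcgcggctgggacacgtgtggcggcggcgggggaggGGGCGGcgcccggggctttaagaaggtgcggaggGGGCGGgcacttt
The GC box was found 3 times in the window of *Reln*, 1 time in that of *Prox1* and 0 times in that of *Lhx6*, and 24.7% of the 32851 windows of this length held it on either strand. The GC content of the window was 81% for *Reln*, 61% for *Lhx6* and 59% for *Prox1*, against a median of 55% over all windows.

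Other genes of the same lineages had small median differences. In a list of 16 other genes of the medial ganglionic eminence lineage, 6 were higher and 10 lower in *Shank3* TG (median log2 fold change -0.09, or 0.0071 without TG-2), and 0 had an unadjusted p-value under 0.05. The most abundant of them were *Kcnc1*, a potassium channel of fast-spiking cells, with a log2 fold change of -0.09 (standard error 0.11), *Sst*, the somatostatin gene, with 0.02 (standard error 0.12), *Satb1* with -0.16 (standard error 0.14) and *Kcnc2* with 0.03 (standard error 0.11). With the replicate block in limma, the unadjusted p-value of *Satb1* was 0.0153 and the adjusted one 0.809, and its log2 fold change was -0.05 without WT-3 and -0.27 without TG-3. *Sst* stood at 3919, 4311 and 5168 normalized counts in TG-1 to TG-3 and at 4532, 3910 and 4698 in WT-1 to WT-3, and its genotypes overlapped. *Chodl*, which marks the long-range cells with strong *Nos1*, was named after its values had been seen. It stood at 6.85, 10.1 and 10.7 normalized counts in TG-1 to TG-3 and at 17.2, 16.7 and 13.3 in WT-1 to WT-3 without overlap. Of the 16 genes it was the 1 without overlap, against 6.02% of all genes tested. Its mean over the 6 libraries was 12.5, near the filter at a mean of 5. The unadjusted p-value of *Chodl* in limma's test was 0.0648.

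In a list of 14 other genes of the caudal ganglionic eminence lineage, 7 were higher and 7 lower (median log2 fold change -0.01, or 0.02 without TG-2 and 0.05 without WT-1), and 1 had an unadjusted p-value under 0.05. This was *Ndnf*, a gene of the neurogliaform cells of layer 1, at 284, 273 and 277 normalized counts in TG-1 to TG-3 and at 194, 223 and 172 in WT-1 to WT-3. The genotypes did not overlap, and TG-2 was the lowest of its genotype. Its log2 difference was 0.51 (standard error 0.13). Its unadjusted p-value in limma's test was 0.00406 and its adjusted p-value 1.00, or 0.491 with the replicate block. *Nr2f2*, a nuclear receptor of the caudal lineage named after its values were seen, was higher in *Shank3* TG at each number, with a log2 difference of 0.27 (standard error 0.15) and an unadjusted p-value by limma of 0.107, or of 0.0230 with the replicate block. *Lamp5*, another neurogliaform gene that excitatory neurons also express, had a log2 difference of -0.04 (standard error 0.10). *Cnr1*, the cannabinoid receptor of cholecystokinin cells, had 0.04 (standard error 0.13), *Id2* had -0.11 (standard error 0.21) and *Cxcl14* had 0.02 (standard error 0.10).

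The 9 genes that GABA neurons share had a median log2 fold change of 0.04 (0.01 without WT-1 or WT-3 and 0.06 without TG-3), and 0 of them had an unadjusted p-value under 0.05. *Gad1* and *Gad2*, which encode the enzymes that make GABA, had log2 differences of 0.06 (standard error 0.09) and 0.04 (standard error 0.07). *Slc32a1*, the vesicular GABA transporter, had -0.07 (standard error 0.07). The confidence interval of *Gad2* went from -0.12 to 0.19. The 7 excitatory neuron genes had a median of -0.01, which was 0.11 without TG-2 and 0.12 without WT-3, and *Slc17a7*, the vesicular glutamate transporter of cortical projection neurons, stood at 42302 to 45669 normalized counts in *Shank3* TG and 39218 to 40002 in WT, without overlap (log2 difference 0.13, unadjusted p-value 0.0983 by limma). The summed level of the GABA list was 24551 to 27252 normalized counts over the 6 libraries.

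**Figure D5:**
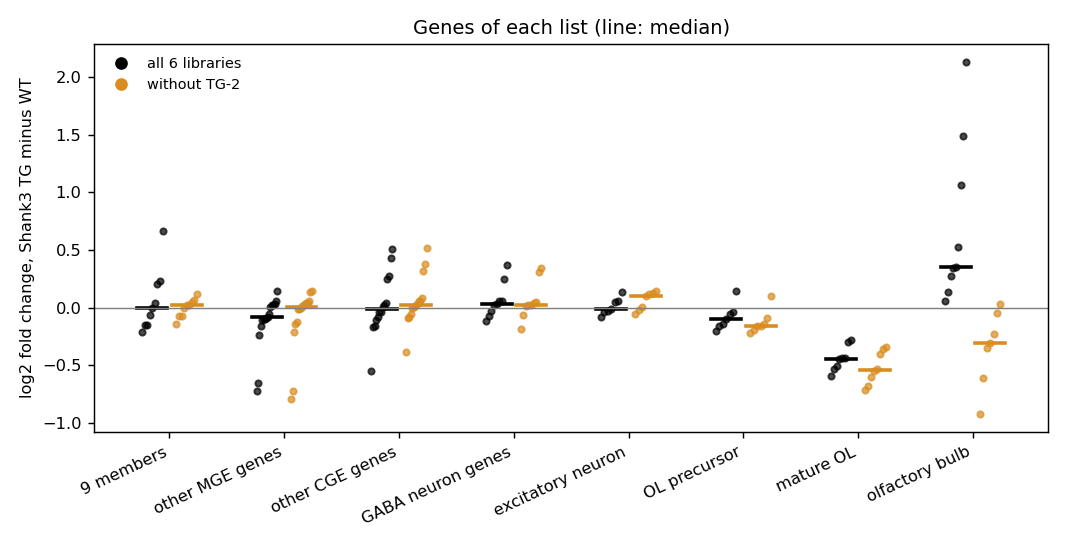
Log2 fold change of *Shank3* TG over WT for each tested gene of the lists, from all 6 libraries (black) and without TG-2 (orange), with the median as a line; MGE and CGE are the medial and caudal ganglionic eminence and OL is oligodendrocyte. The interneuron lists lie around 0 in both fits, whereas the olfactory bulb list has a median of 0.36 over 9 genes with TG-2 and of -0.30 over the 7 that pass the filter without it.

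Over the 6 libraries the 36 pairs among the 9 genes had Pearson correlations from -0.95 (*Lhx6* and *Reln*) to 0.90 (*Lhx6* and *Prox1*) with a median of -0.12, on the log2 scale. These values describe the same 6 libraries, in which TG-2 and the libraries numbered 3 stand apart. Among the 13454 other genes whose mean was 50 normalized counts or more, the most alike over the 6 libraries was *L3mbtl2* for *Pvalb*, *Tmem132b* for *Lhx6*, *Elk4* for *Sox6*, *Col23a1* for *Calb2* and *Stk10* for *Htr3a*. It was *C2cd3* for *Adarb2*, *Ssc5d* for *Nos1* and *Lamc1* for *Reln*, and these correlations lay between 0.982 and 0.996. *Col23a1*, picked by its likeness to *Calb2*, was by that choice also highest in TG-2. It had 391 normalized counts there against 195 to 228 in the other libraries.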

How the data were processed

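The authors ran Salmon 0.9.1 against GRCm38, with its correction for GC content, summed transcripts to genes by tximport (R 3.6.0) and scaled libraries by the size factors of DESeq2 1.19.11. The deposited signal values are these normalized read counts for 18254 genes and 6 libraries. They are not whole numbers, so no counting interval was given. Positions, names, exon lengths and transcripts came from GENCODE M21 (GRCm38), which held 18215 of the genes on its chromosomes, and promoters from RefSeq.

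The 16714 genes whose mean was 5 normalized counts or more were compared in R 4.3.3 with limma 3.58.1, after adding a pseudocount of 1 and taking the log2, with the genotype alone in the model and a mean-variance trend. P-values were two-sided, and those under 0.05 after the adjustment of Benjamini and Hochberg were called. The fit was tested on simulated data. Whether replicate numbers pair the libraries was read from the correlation across genes of deviations from the genotype mean. It was 0.30, 0.33 and 0.62 for the numbers 1, 2 and 3, and at most 0.27 between different numbers. Between TG-1 and WT-2 it was 0.27, and between TG-2 and WT-1 it was 0.23. Both are also above 0.1, so this measure does not set the numbers 1 and 2 apart as pairs. The labels do not say what a number shares. With each same-number value above 0.1, the numbers were taken as pairs in a blocked fit.

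The 9 genes and the lists were chosen with earlier results of these data known. The lists were 16 and 14 other genes of the medial and caudal lineages, 9 of GABA neurons, and genes of excitatory neurons, oligodendrocyte precursors, mature oligodendrocytes, olfactory bulb, striatal neurons, Cajal-Retzius cells, and dentate gyrus and thalamus. Named are the 9 genes, at most the 4 most abundant of a list, list genes with an unadjusted p-value under 0.05, and the most alike gene of each of the 9. Exceptions are stated, and some genes that this rule names are not reported here. The fit was repeated with a pseudocount of 0.1 or 5, without the filter, with the filter raised to a mean of 50, with upper quartile and quantile scaling, no trend or robust variances, the replicate block, a term for the libraries numbered 3, an empirical null and each library left out.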

Additional observations from a re-analysis of the deposited data

How the results depend on the processing

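The number of the 9 interneuron genes with an adjusted p-value under 0.05 was 0 in all 18 alternatives. The number among all genes tested was 0 in the limma fit described above. The paper itself reported differentially expressed genes in this comparison, by DESeq2 with an empirical correction of the p-values. The number by limma was 1 with upper quartile scaling, with robust variances, with the replicate block and with the term for the libraries numbered 3. It was 26 with the empirical null and 48 with the replicate block without the libraries numbered 2, and it ranged from 0 to 1 when single libraries were left out, with the 1 gene called without WT-3. Of 162 log2 fold changes of the 9 genes under the alternatives, 8 had the opposite sign. *Sox6* went from -0.0036 to 0.0055 with upper quartile scaling, to 0.0039 with quantile normalization and to 0.050 with the block without the libraries numbered 2, and it ranged from -0.16 to 0.079 with each library left out. *Calb2* was -0.0040 with the block without the libraries numbered 2. *Htr3a* ranged from -0.20 to 0.082 with each library left out. The cause was not tested. With 3 pools per genotype, the confidence intervals depend on whether the replicate block is in the model, and p-values measure the spread between pools.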

Other observations

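Other lists were measured beside the interneuron genes. The 8 genes of striatal projection neurons had a median log2 fold change of -0.07 in *Shank3* TG, with 3 genes higher and 5 lower, and the median ranged from -0.22 to -0.05 with single libraries left out and was -0.0029 with a filter at a mean of 50. The 6 genes of dentate granule cells and the thalamus, the former of which express *Prox1*, had a median of -0.06, which was -0.27 without TG-2, -0.24 without WT-1, -0.01 without WT-2 and 0.08 with a filter at a mean of 50. Of 4 genes of Cajal-Retzius cells, the reelin-producing cells of layer 1, 3 passed the filter on low values with a median of 0.10, which was -0.18 without TG-2 and 0.38 without TG-1. Their summed level was 87.5 normalized counts in TG-2 and 37.0 to 66.7 in the other libraries.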
